A study of Mus musculus with 35 samples.

Results

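The genes of the tumor necrosis factor (TNF) superfamily and of the NF-kB pathway were examined in hematopoietic stem/progenitor cells (HSPCs) of WT and JMJD1B-/- mice. They were taken by gene name from the deposited expression table, as the names of TNF ligands and receptors, TNF-induced proteins, TRAF, RIPK and cIAP adaptors, IkB kinases, NF-kB subunits and IkB proteins. This gave 52 of the 11982 gene names in the table. By role, 51 of them are 5 ligands, 10 receptors, 13 adaptors or ligases, 3 TRAF-interacting proteins, 4 IkB kinases, 4 NF-kB subunits, 6 IkB proteins or other regulators named for NF-kB, and 6 TNF-induced proteins. Relb, the remaining NF-kB subunit gene, was not analysed here.

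The TNF superfamily is a set of trimeric ligands that bind receptors on the same or on neighboring cells. Receptors such as TNFR1 recruit the adaptors TRADD, RIPK1, TRAF and cIAP, which lead to the IkB kinase complex. This kinase marks IkB proteins for destruction and so releases NF-kB dimers, which enter the nucleus and switch on genes of inflammation and survival. Several of these targets, among them Nfkbia and Tnfaip3, encode inhibitors that shut the pathway off again. In bone marrow, TNF and NF-kB signals are known for their part in stem cell survival and in the myeloid response to infection.

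JMJD1B, encoded by Kdm3b, is a JmjC demethylase, and the study asked which genes of HSPCs depend on it. Polyadenylated RNA of bone marrow HSPCs was sequenced from 2 WT and 2 JMJD1B-/- mice, labelled replicates 1 and 2 of each genotype. Both genotypes were of the strain 129P2xC57BL/6J, the animals were untreated, and the knockout is a gene trap present in the whole animal, which was made in embryonic stem cells of 129P2 origin. The study's methods give a range of adult ages and both sexes for its mice as a whole, with no age or sex given for a library. Its main text describes age-matched littermates for the HSPCs used in ChIP-seq. The values are RPKM, in which reads are scaled by transcript length and by library size, so that levels can be compared between genes.

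Kdm3b, the targeted gene, had 30.98 and 24.3 RPKM in WT and 4.00 and 4.63 RPKM in JMJD1B-/- replicates, with an adjusted p = 0.0314 in limma. The table gives no read counts. Low values put the depth at 1.405, 0.349 and 1.202 times that of WT replicate 1 in WT replicate 2 and JMJD1B-/- replicates 1 and 2, so JMJD1B-/- replicate 1 was the shallowest library. WT replicate 2 stood apart in sex: Xist was at 332 RPKM there and at no more than 0.051 RPKM in the other libraries, and 4 Y-linked genes were low only there. All 11 markers of HSPCs that were looked for were listed, with sums of 319 to 358 RPKM in WT and 225 to 287 RPKM in JMJD1B-/- libraries. Their means ran from 1.92 RPKM for Ly6a to 68.4 RPKM for Kit, so the sums rest on the abundant ones. Of the 11, 5 were lower and 0 higher in limma at an unadjusted p under 0.05 (Cd34, Flt3, Gata2, Mecom and Meis1). By this rule 6.33% of all 11863 genes tested were lower and 3.81% higher, which also applies to the marker counts below. The median log2 fold change of the 11 was -0.64 (-0.40 without WT replicate 1 and -0.41 without JMJD1B-/- replicate 1). Cd34 and Flt3 were at 37.8% and 37.7% of the WT mean. Markers of other cells were present too and differed between libraries. The sum of 6 basophil and mast cell markers was 474 and 550 RPKM in WT against 98.2 and 42.2 RPKM in JMJD1B-/-, that of 5 erythroid markers 143 and 210 RPKM against 424 and 961 RPKM, that of 14 listed T and NK markers of 17 was highest in JMJD1B-/- replicate 1 (113 RPKM, against 27.8 to 49.4 RPKM elsewhere), and that of 6 listed stroma and endothelium markers of 7 was highest in WT replicate 2 (39.1 RPKM, against 6.21 to 11.1 RPKM elsewhere). The sum of 10 granulocyte markers was 274 and 186 RPKM in WT against 84.99 and 55.2 RPKM in JMJD1B-/-, and of the 8 tested 5 were lower and 2 higher at an unadjusted p under 0.05. For 8 listed monocyte and macrophage markers of 14 the sums were 120 and 117 RPKM against 114 and 36.8 RPKM, with 2 of 8 lower, and for 2 listed B cell markers of 9 they were 3.73 and 3.42 RPKM against 3.04 and 0.766 RPKM, with 1 of 2 lower. In bulk RNA, fewer cells of a type and less RNA per cell cannot be told apart.

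Promoter sequences of the pathway were read because NF-kB acts back on its own genes. In the RefSeq sequences of assembly GRCm38.p6, 41 of the 52 genes had a window of 250 bases before the gene start. The NF-kB consensus decamer, searched by its letters on both strands, was found in at least 1 window of 10 of them (24.4%), against 10.4% of the 8496 listed genes with a window and 8.23% of 27025 genes in all. The genes with a match were Nfkb2, Nfkbia, Nfkbid, Nfkbie, Rel, Tnfaip2, Tnfaip3, Tnfaip8l1, Tnfrsf25 and Traf3. The 60-base stretches below, 5′ to 3′ on the strand of the gene, hold the match nearest to a gene start and come from the textbook feedback genes Nfkbia, Nfkbie, Nfkb2 and Tnfaip3, and from Rel, Nfkbid and Tnfaip2, which were added after their expression was seen. Capitals mark each match, and matches that overlap by all but 1 base appear as a single run.
Nfkbia (chr12:55492648-55492707, minus strand): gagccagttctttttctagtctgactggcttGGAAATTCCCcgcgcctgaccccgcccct
Nfkbie (chr17:45555569-45555628, plus strand): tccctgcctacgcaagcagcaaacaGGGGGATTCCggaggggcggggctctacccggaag
Nfkb2 (chr19:46304677-46304736, plus strand): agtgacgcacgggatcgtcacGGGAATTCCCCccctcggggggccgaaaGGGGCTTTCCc
Tnfaip3 (chr10:19015411-19015470, minus strand): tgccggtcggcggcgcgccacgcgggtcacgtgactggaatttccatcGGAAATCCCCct
Rel (chr11:23771026-23771085, minus strand): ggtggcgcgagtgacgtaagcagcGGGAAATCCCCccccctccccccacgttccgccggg
Nfkbid (chr7:30422200-30422259, plus strand): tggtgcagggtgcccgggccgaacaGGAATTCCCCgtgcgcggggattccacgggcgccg
Tnfaip2 (chr12:111442601-111442660, plus strand): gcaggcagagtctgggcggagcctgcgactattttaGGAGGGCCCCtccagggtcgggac
The nearest match lay 12 bases before the start of Tnfaip3, 29 before Nfkbia, 11 before Nfkb2, 24 before Tnfaip2, 91 before Rel, 106 before Nfkbie and 181 before Nfkbid. A match describes these letters and is not shown to be a bound site.

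All 52 genes passed the filter of a mean of 0.5 RPKM. They ranged from Tnfsf4, with a mean of 0.541 RPKM, to Tnfrsf14, with 57.6 RPKM, and 16 had a mean of at least 10 RPKM while 3 had less than 1. The plot of levels by role shows these genes in each library.

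**Figure D1:**
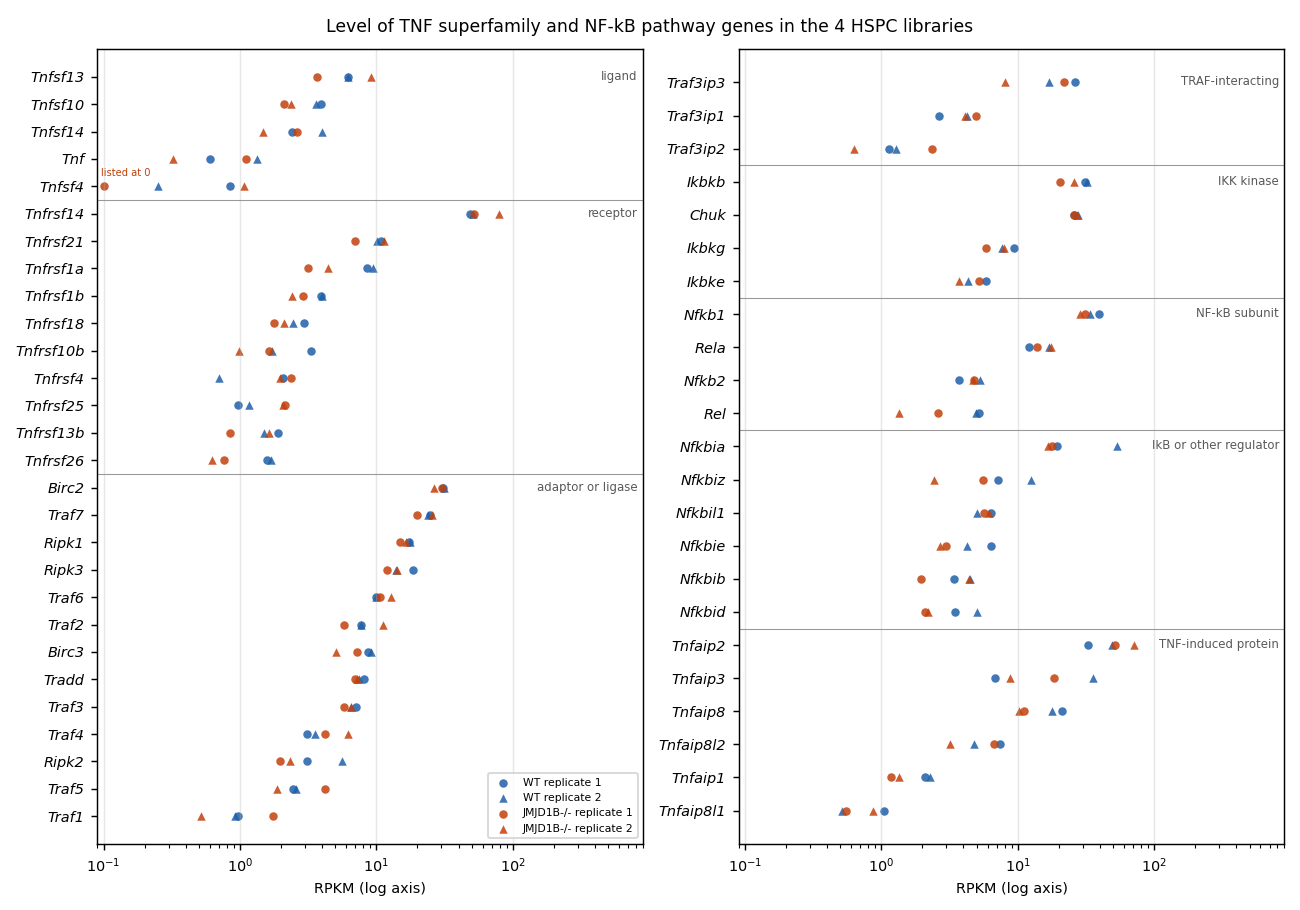
RPKM of the 51 genes with a role on a log axis, grouped by role, with WT in blue, JMJD1B-/- in orange, circles for replicate 1 and triangles for replicate 2. For Rel, Tnfrsf1a and Tnfaip8 both orange symbols lie left of both blue ones, and for Nfkbia the triangle of WT replicate 2 (53.4 RPKM) lies apart from the other 3 libraries.

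In limma, 7 of the 52 genes were lower (13.5%) and 1 was higher (1.92%) in JMJD1B-/- cells, at an unadjusted p under 0.05. Over all 11863 genes tested, 6.33% were lower and 3.81% were higher by the same rule. Quantile normalization moved the share of lower genes among all called genes from 62.4% to 51.8%. The lower genes were Tnfrsf1a, Tnfaip8, Rel, Nfkbiz, Nfkbid, Nfkbie and Ikbkb, and the higher gene was Tnfaip2. After Benjamini-Hochberg adjustment over all genes limma called none of the 52, with a lowest adjusted p = 0.258. Of all genes 0.0421% passed, 0.0337% lower and 0.00843% higher. A gene-by-gene Student test called 7 of the 52 genes without adjustment (6 lower and 1 higher, against 4.32% and 2.93% of all genes), 2 of them shared with limma, and none after it. With 2 libraries in each group, exact permutation allows no two-sided p smaller than 0.333. Both limma counts of pathway genes moved when a library was left out, and the counts over all genes moved with them. The shares above therefore hold for the full set of libraries only.

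By level alone, the JMJD1B-/- libraries were both under the WT pair for 21 of the 52 genes (40.4%, against 22.7% of all genes tested) and both above it for 5 (9.62%, against 20.1%). The genotypes thus did not overlap for 26 of the 52 genes, against 42.9% of all genes, and overlapped for the other 26. The log2 fold change was negative for 38 of the 52 (73.1%), against 53% of all genes. Its median was -0.30, against -0.02 over all genes, and it became -0.18 against 0.02 after quantile normalization and -0.16 against -0.03 without WT replicate 1. With 1 library left out, 27 to 31 of the genes lay below (51.9% to 59.6%, against 31.9% to 49.0% of all genes). The medians by role, on the same log2 scale, were -0.87 for the IkB proteins and other regulators, -0.62 for the ligands, -0.47 for the receptors, -0.33 for the TNF-induced proteins, -0.25 for the IkB kinases, -0.13 for the adaptors and ligases, -0.10 for the NF-kB subunits and 0.03 for the TRAF-interacting proteins. Each of them moved by over 1.5 times when 1 library was left out. Without WT replicate 1 the medians of the IkB kinases, adaptors and subunits were -0.12, -0.08 and -0.17, and that of the TRAF-interacting proteins was -0.05. Without WT replicate 2 the IkB proteins had -0.43, the ligands -0.27, the TNF-induced proteins -0.59, the IkB kinases -0.42, the subunits -0.02 and the TRAF-interacting proteins 0.10. Without JMJD1B-/- replicate 1 the receptors had -0.19, the TNF-induced proteins -0.74 and the TRAF-interacting proteins -0.85, and without JMJD1B-/- replicate 2 the adaptors had -0.23, the subunits -0.15, the TNF-induced proteins -0.09 and the TRAF-interacting proteins 0.54. After quantile normalization the ligands had -0.08, the receptors -0.23, the IkB kinases -0.14, the adaptors -0.07 and the TRAF-interacting proteins 0.41.

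**Figure D2:**
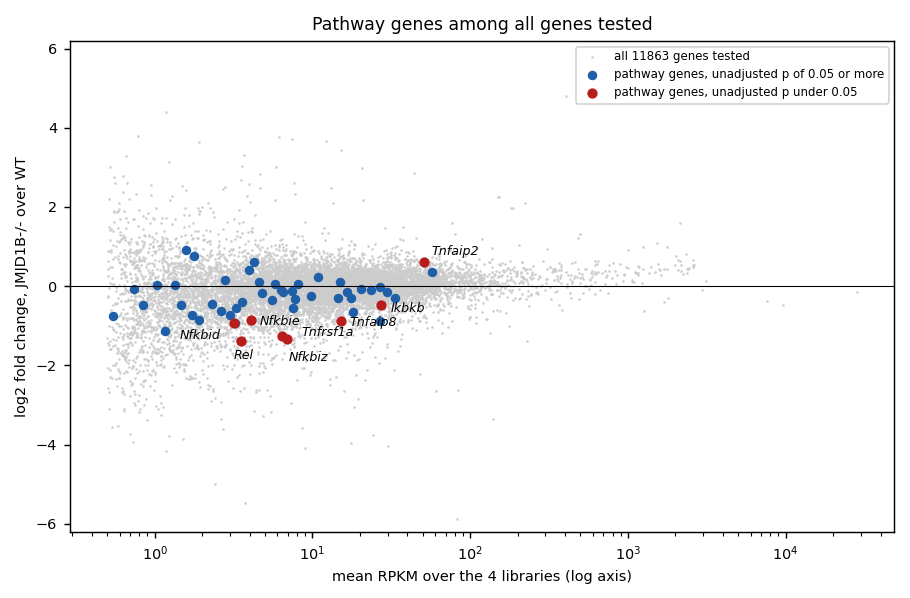
Log2 fold change of JMJD1B-/- over WT against mean RPKM on a log axis, with all 11863 genes in grey, pathway genes in blue, and those with an unadjusted p under 0.05 in red and named. The fold changes of the 52 genes lie between -1.38 and 0.91, inside the cloud of all genes, and 7 of the 8 red points lie under 0.

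Among the receptors, Tnfrsf1a, which encodes TNFR1, the main receptor for soluble TNF, was lower. It had 8.51 and 9.47 RPKM in WT replicates 1 and 2 and 3.14 and 4.39 RPKM in JMJD1B-/- replicates 1 and 2, so the genotypes did not overlap. The JMJD1B-/- mean was 41.9% of the WT mean. On the log2 scale the fold change was -1.25 with a standard error of 0.30 (unadjusted p = 0.00344, adjusted p = 0.258 in limma). It was -1.17 without WT replicate 2, the only one of 13 other settings in which it did not pass.

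Tnfrsf1b, which encodes TNFR2, had 3.89 and 3.99 RPKM in WT and 2.89 and 2.42 RPKM in JMJD1B-/- libraries, with a log2 fold change of -0.56 ± 0.34 (SE) that did not pass. Tnfrsf26, a receptor gene of the mouse, was listed at 1.57 and 1.68 RPKM in WT and at 0.768 and 0.622 RPKM in JMJD1B-/-. It reached 1 RPKM, which a gene needs in some library to be listed, only in WT. Its log2 fold change of -1.13 had a standard error of 0.59 and did not pass (unadjusted p = 0.0980, adjusted p = 0.576 in limma), although there was no overlap. It passed in limma without a trend, in the gene-by-gene test and without JMJD1B-/- replicate 1 (-1.26). Tnfrsf14, which encodes the LIGHT and BTLA receptor HVEM, was the most abundant receptor and the most abundant gene of all 52. Its level was 48.7 and 50.9 RPKM in WT and 52.1 and 78.8 RPKM in JMJD1B-/-, and the difference (log2 fold change 0.36 ± 0.23, SE) did not pass. It was 0.66 without JMJD1B-/- replicate 1, where it passed, and 0.07 without JMJD1B-/- replicate 2. Tnfrsf25, which encodes the receptor DR3, was at 0.973 and 1.16 RPKM in WT and 2.12 and 2.05 RPKM in JMJD1B-/-, the highest log2 fold change of the 52 genes (0.91 ± 0.50, SE). It did not pass in limma with a trend, but did after quantile normalization, without a trend and in the gene-by-gene test. The receptors Tnfrsf10b, a death receptor for TRAIL, and Tnfrsf18, which encodes GITR, also lay below WT in both JMJD1B-/- libraries, at 52.1% and 72.0% of the WT mean. Tnfrsf4, which encodes OX40 and lies next to Tnfrsf18 in the genome, overlapped between the genotypes, with log2 fold changes of 0.77 for Tnfrsf4 and -0.45 for Tnfrsf18. Tnfrsf21 and Tnfrsf13b overlapped as well.

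The ligands were low, with means between 0.541 and 6.31 RPKM. Tnfsf13, which encodes APRIL, was the most abundant, at 6.21 and 6.17 RPKM in WT and 3.65 and 9.20 RPKM in JMJD1B-/-, with the WT libraries between the JMJD1B-/- libraries. Tnf itself was at 0.599 and 1.33 RPKM in WT and 1.11 and 0.323 RPKM in JMJD1B-/-. The smallest whole read numbers that fit these values were 17, 53, 11 and 11, and the true numbers may be a multiple of them. The replicates differed by 2.22-fold in WT and by 3.44-fold in JMJD1B-/-, and the genotypes overlapped (log2 fold change -0.48, 95% interval -2.50 to 1.53). Tnfsf10, which encodes the death ligand TRAIL, was the only ligand without overlap, at 3.91 and 3.61 RPKM against 2.09 and 2.35 RPKM. That log2 fold change of -0.74 did not pass (unadjusted p = 0.0780, adjusted p = 0.546 in limma). Tnfsf4, which encodes the OX40 ligand, was listed at 0 in JMJD1B-/- replicate 1, where 3 reads correspond to at most 0.610 RPKM. It was at 0.252 to 1.06 RPKM in the other libraries. Such limits cover counting error only.

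None of the 13 adaptors and ligases passed in limma over the 4 libraries in either direction. Birc3 (-0.81) and Traf4 (0.89) passed without JMJD1B-/- replicate 1, Ripk2 (-1.04) without JMJD1B-/- replicate 2, and Traf4 after quantile normalization (0.76). Birc2, which encodes the ubiquitin ligase cIAP1, was the most abundant of them, with 30.995 and 31.4 RPKM in WT and 30.3 and 26.5 RPKM in JMJD1B-/-. A log2 fold change of -0.14 came with a 95% interval from -0.57 to 0.29. Its neighbor Birc3, which encodes cIAP2 and is itself an NF-kB target, was at 8.66 and 9.20 RPKM against 7.25 and 5.04 RPKM, with a log2 fold change of -0.55 ± 0.28 (SE). Ripk1, the kinase at the TNFR1 complex, had a log2 fold change of -0.15, and Tradd, the first adaptor of that complex, had -0.13, each with an interval inside -1 and 1. Ripk2, the kinase of the NOD receptors, had 3.10 and 5.57 RPKM in WT and 1.97 and 2.33 RPKM in JMJD1B-/- (log2 fold change -0.92, unadjusted p = 0.0598, adjusted p = 0.507 in limma). Traf4 and Traf6 lay above WT in both JMJD1B-/- libraries, at 157% and 118% of the WT mean, and Traf2, Traf5, Traf1, Traf7 and Ripk3 overlapped. The TRAF-interacting genes overlapped too. Traf3ip3, the most abundant of these, had 26.2 and 16.8 RPKM in WT and 21.9 and 7.99 RPKM in JMJD1B-/-, so the JMJD1B-/- replicates differed from each other by 2.74-fold.

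**Figure D3:**
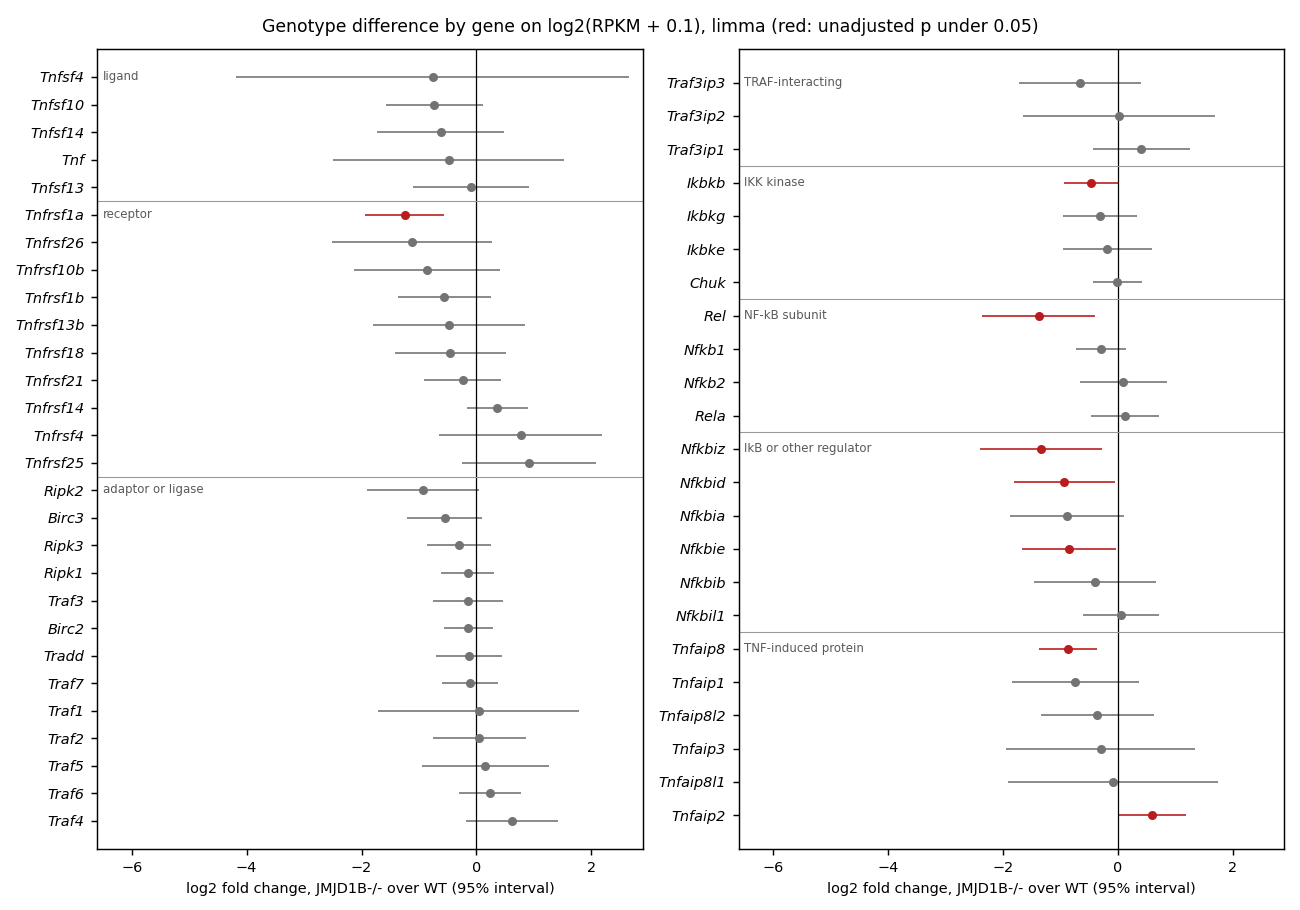
Log2 fold change of JMJD1B-/- over WT for the 51 genes with a role, each point with its 95% interval from limma on log2(RPKM + 0.1), and unadjusted p under 0.05 in red. Of the 51 intervals, 18 lie wholly between -1 and 1, and the widest belongs to Tnfsf4, which was listed at 0 in JMJD1B-/- replicate 1.

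At the IkB kinase complex, 1 of the 4 genes was lower (25%, against 6.33% of all genes tested). Ikbkb, which encodes IKK-beta, the kinase of the canonical pathway, was that gene. Its level was 30.97 and 32.4 RPKM in WT and 20.4 and 25.7 RPKM in JMJD1B-/-, on average 72.6% of WT. A log2 fold change of -0.47 ± 0.20 (SE) was at the threshold (unadjusted p = 0.0497, adjusted p = 0.491 in limma). It lost its call in 6 of 13 other settings, among them the fits without WT replicate 1 (-0.50), WT replicate 2 (-0.44) and JMJD1B-/- replicate 1 (-0.30). Chuk, which encodes IKK-alpha, the kinase of the non-canonical pathway, had 26.0 and 27.6 RPKM in WT and 26.0 and 27.1 RPKM in JMJD1B-/-. Its log2 fold change was -0.01, with a 95% interval from -0.44 to 0.41. The difference between Ikbkb and Chuk was not tested. Ikbkg, the X-linked gene of the scaffold NEMO, was at 9.37 and 7.72 RPKM against 5.88 and 7.92 RPKM, and Ikbke, which encodes a related kinase of the interferon response, at 5.83 and 4.29 RPKM against 5.21 and 3.72 RPKM. Both overlapped between the genotypes.

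Among the NF-kB subunits, Rel was lower and the other 3 did not pass. Rel, which encodes c-Rel, a subunit known mainly from lymphoid and myeloid cells, had 5.19 and 4.94 RPKM in WT and 2.62 and 1.35 RPKM in JMJD1B-/-. There was no overlap, and the JMJD1B-/- mean was 39.2% of WT. Its log2 fold change of -1.38 ± 0.42 (SE) was the lowest of the 52 genes (unadjusted p = 0.0124, adjusted p = 0.371 in limma). It was -1.34 without WT replicate 1 and -1.41 without WT replicate 2, and passed in neither. Leaving out JMJD1B-/- replicate 1 gave -1.83 and leaving out replicate 2 gave -0.92. Nfkb1, which encodes the precursor of p50, was the most abundant subunit gene, at 39.4 and 33.7 RPKM in WT and 30.9 and 28.7 RPKM in JMJD1B-/-. The genotypes did not overlap, but the log2 fold change of -0.29 ± 0.19 (SE) did not pass. Rela, which encodes the p65 subunit, was at 12.1 and 16.9 RPKM against 13.7 and 17.5 RPKM, with a log2 fold change of 0.12 and a 95% interval from -0.48 to 0.71. Nfkb2, which encodes the precursor of p52, was at 3.68 and 5.31 RPKM against 4.76 and 4.72 RPKM, with a log2 fold change of 0.10 and an interval from -0.65 to 0.85.

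Of the IkB proteins and other regulators, 3 of 6 genes were lower (50%, against 6.33% of all genes tested). Nfkbiz, which encodes IkB-zeta, a nuclear cofactor of NF-kB at genes such as Il6, had 7.14 and 12.5 RPKM in WT and 5.58 and 2.41 RPKM in JMJD1B-/-. Its log2 fold change was -1.34 ± 0.45 (SE, unadjusted p = 0.0203, adjusted p = 0.420 in limma), and it was -0.94 without WT replicate 2, when it no longer passed, and -0.75 without JMJD1B-/- replicate 2, when it did. Nfkbid, which encodes the nuclear protein IkB-NS, was at 3.47 and 5.01 RPKM in WT and 2.08 and 2.20 RPKM in JMJD1B-/-. It differed by -0.93 ± 0.38 on the log2 scale (SE, unadjusted p = 0.0406, adjusted p = 0.477 in limma). Nfkbie, which encodes the cytoplasmic inhibitor IkB-epsilon, was at 6.39 and 4.23 RPKM in WT and 3 and 2.69 RPKM in JMJD1B-/-, a log2 fold change of -0.85 ± 0.35 (SE, unadjusted p = 0.0442, adjusted p = 0.483 in limma). Nfkbid and Nfkbie did not pass without WT replicate 1 (-1.19 and -0.56) or without WT replicate 2 (-0.67 and -1.14). Over the 13 other settings, Nfkbid and Nfkbie each lost the call in 5 and Nfkbiz in 3. None of the 3 genes overlapped between the genotypes.

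Nfkbia, which encodes IkB-alpha, the main feedback inhibitor of NF-kB, was decided by 1 library. It had 19.3 RPKM in WT replicate 1 and 53.4 RPKM in WT replicate 2, against 17.9 and 16.7 RPKM in JMJD1B-/- replicates 1 and 2. The difference was -0.89 ± 0.42 on the log2 scale (SE, unadjusted p = 0.0725, adjusted p = 0.535 in limma). The value was -1.62 without WT replicate 1, where it passed, and -0.16 without WT replicate 2, where it did not. The gap between the WT replicates, 1.47 on the log2 scale, was larger than that of 98.0% of all genes. Tnfaip3, which encodes A20, the ubiquitin-editing brake of the pathway, had the same library as its highest, with 6.84 RPKM in WT replicate 1, 35.9 RPKM in WT replicate 2, and 18.4 and 8.79 RPKM in JMJD1B-/- replicates 1 and 2. The genotypes overlapped. For Tnfaip3 the log2 fold change was -0.30 ± 0.71 (SE), and it turned from -1.49 without WT replicate 1 to 0.89 without WT replicate 2. Over all genes, the median gap between the replicates was 0.22 in WT and 0.36 in JMJD1B-/- on that scale. WT replicate 2 also held the highest sum of stroma and endothelium markers and of 10 genes of tissue dissociation stress (379 RPKM, against 228 to 316 RPKM in the other libraries), and the part of these in the levels of Nfkbia and Tnfaip3 was not tested. Nfkbib and Nfkbil1 overlapped between the genotypes, with log2 fold changes of -0.39 and 0.05.

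**Figure D4:**
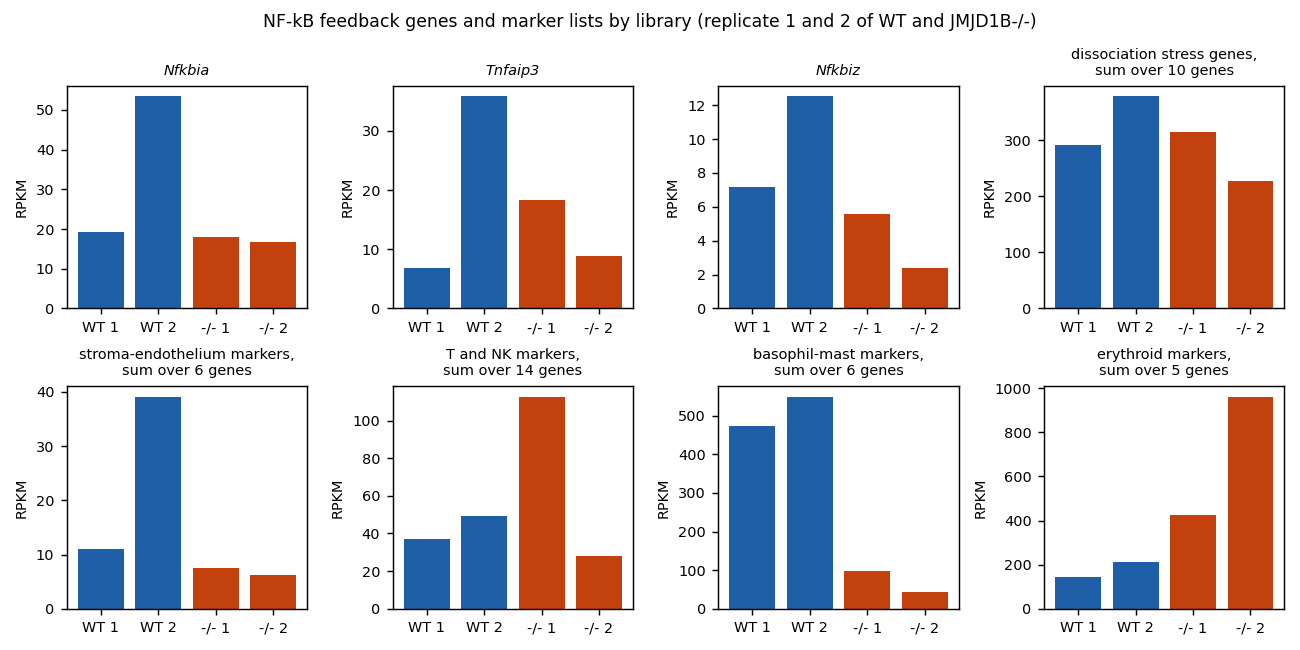
RPKM of Nfkbia, Tnfaip3 and Nfkbiz and summed RPKM of 5 marker lists in each library, as bars from 0, with WT replicates 1 and 2 in blue and JMJD1B-/- replicates 1 and 2 (marked -/-) in orange. WT replicate 2 is the highest library for these 3 genes, for the stress genes and for the stroma and endothelium markers, while the basophil and mast cell markers are high in both WT libraries and the erythroid markers in both JMJD1B-/- libraries.

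Of the 6 TNF-induced proteins, 1 was lower and 1 was higher (16.7% each, against 6.33% and 3.81% of all genes tested). Tnfaip8, an NF-kB-induced inhibitor of cell death, was at 21.2 and 17.95 RPKM in WT and 11.1 and 10.1 RPKM in JMJD1B-/-, on average 54.2% of WT. A log2 fold change of -0.87 ± 0.21 (SE) passed before adjustment (unadjusted p = 0.00424, adjusted p = 0.265 in limma). It did so in 12 of 13 other settings, the exception being the fit without WT replicate 1 (-0.75). Tnfaip2, a TNF-responsive gene of endothelial and myeloid cells, was the only gene of the 52 that was higher. It was the most abundant of the TNF-induced genes, with 32.7 and 48.7 RPKM in WT and 51.9 and 70.5 RPKM in JMJD1B-/-. The genotypes did not overlap, with WT replicate 2 close under JMJD1B-/- replicate 1. On the log2 scale it differed by 0.60 ± 0.25 (SE, unadjusted p = 0.0476, adjusted p = 0.489 in limma), and it did not pass without WT replicate 1 (0.31) or without JMJD1B-/- replicate 2 (0.38). Tnfaip1 lay below WT in both JMJD1B-/- libraries, at 58.1% of the WT mean, and Tnfaip8l1 and Tnfaip8l2 overlapped.

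Pathway genes other than the 8 passed at an unadjusted p under 0.05 in some of the other settings. Tnfaip1, Tnfrsf25, Tnfrsf26 and Tnfsf10 did so both in limma without a trend and in the gene-by-gene test, and Tnfrsf1b in the latter. With the libraries left out in turn, they were Nfkbia and Tnfaip3 for WT replicate 1, none for WT replicate 2, Birc3, Tnfaip8l2, Tnfrsf10b, Tnfrsf14, Tnfrsf26, Tnfsf14, Traf3ip3 and Traf4 for JMJD1B-/- replicate 1, and Nfkbib, Ripk2, Tnfrsf21, Tnfsf10 and Tnfsf13 for JMJD1B-/- replicate 2.

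The median log2 fold change was -0.22 for the 10 genes with a promoter match and -0.18 for the 31 with a window and no match. JMJD1B-/- libraries were both below WT for 5 of the 10 (50%) and for 8 of the 31 (25.8%), against 22.7% of all genes tested. They were both above WT for 2 of the 10 (20%) and 3 of the 31 (9.68%), against 20.1%. The 11 pathway genes without a window could not be searched and stand in neither group. Among them Ikbkb, Nfkbiz, Tnfaip8, Nfkb1, Ripk2, Tradd, Tnfrsf10b and Tnfrsf26 lay below WT in both JMJD1B-/- libraries, and the rest overlapped. No link between a match and a direction is read from these shares. Of the 7 genes whose matches are shown above, Rel, Nfkbid and Nfkbie were lower, Tnfaip2 was higher, and Nfkbia, Nfkb2 and Tnfaip3 did not pass. Since Rel, Nfkbid and Tnfaip2 were shown with their expression known, nothing is read from these directions.

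Genes of the same pathway under other names were read from a list of 64, of which 52 were tested. At an unadjusted p under 0.05, 10 of them were lower (19.2%, against 6.33% of all genes) and none was higher in limma (against 3.81%), although a gene-by-gene Student test called 1 higher. Both JMJD1B-/- libraries lay below WT for 19 (36.5%, against 22.7% of all genes) and above for 6 (11.5%, against 20.1%). The median log2 fold change was -0.22, and it was -0.09 without JMJD1B-/- replicate 1 and -0.10 after quantile normalization. No gene of the list passed after adjustment. The counts of lower and higher genes moved when a library was left out, as did those over all genes. The median was -0.16 without WT replicate 1 and -0.21 without WT replicate 2 or without JMJD1B-/- replicate 2. The lowest log2 fold change among genes without a value at 0 was that of Card9, the adaptor of the C-type lectin receptors of myeloid cells, with 34.4 and 27.9 RPKM in WT against 8.34 and 4.95 RPKM in JMJD1B-/- (-2.25 ± 0.29, SE, adjusted p = 0.0714 in limma). Of the granulocyte markers, Mpo, Elane, Ctsg, Prtn3 and Csf3r had log2 fold changes of -2.65, -2.29, -2.13, -2.11 and -1.07, while S100a9 and S100a8 were higher (2.17 and 0.70), and of the 8 monocyte and macrophage markers Csf1r and Ly6c2 were lower (-1.80 and -1.09). All of the 8 but Csf1r overlapped between the genotypes, and the other 6 had log2 fold changes from -1.21 for Ccr2 to 0.95 for Emr1. The part of such cells in the level of Card9 was not tested. Cd27, a TNF receptor superfamily member of lymphocytes and progenitors, was at 9.95 and 8.76 RPKM against 4.66 and 4.95 RPKM (-0.94). Casp8 and Cflar, which encode caspase-8 and its inhibitor c-FLIP, were lower before adjustment, with log2 fold changes of -0.52 and -0.56 (adjusted p = 0.489 and 0.477 in limma). Casp8 had -0.27 without JMJD1B-/- replicate 2 and did not pass. Fadd, which encodes the adaptor that joins caspase-8 to death receptors, overlapped between the genotypes (-0.37), with -0.05 when JMJD1B-/- replicate 1 was left out and -0.68 when replicate 2 was, where it passed. Of the 10 lower genes, Card9 passed in all 4 fits that left out 1 library, and each of the others failed in at least 1 of them.

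The other lower genes of the list were Tnip2, Tnip3, Irak3, Irak4, Zranb1 and Trafd1. Tnip2, which encodes an A20-binding inhibitor, had -0.76. Its relative Tnip3 was listed at 0 in JMJD1B-/- replicate 1 and at 0.239 RPKM in replicate 2, against 1.08 and 1.63 RPKM in WT. Tnip3 reached 1 RPKM, which a gene needs in some library to be listed, only in WT. Its place among the lower genes thus rested on the genotype where it was high. The kinase gene Irak4 and its brake Irak3 had log2 fold changes of -0.68 and -0.82. Zranb1, which encodes a deubiquitinase, had -0.49, and Trafd1, a feedback regulator, had -0.61. Genes of the ubiquitin chain complex LUBAC lay close to WT, with 0.18 for Rnf31, -0.01 for Rbck1 and 0.14 for Sharpin, as did the kinase gene Map3k7 with 0.18, and the Toll-like receptor adaptor gene Myd88 did not pass.

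Textbook NF-kB target genes outside the pathway differed in both directions. Of 52 in the list, 31 were tested, and 11 were lower (35.5%) and 4 higher (12.9%) at an unadjusted p under 0.05, against 6.33% and 3.81% of all genes. The median log2 fold change was -0.52, and it was -1.27 without JMJD1B-/- replicate 1. None passed after adjustment in limma, with a lowest adjusted p = 0.0768, or in the gene-by-gene test, which called 4 lower and 0 higher without it. The counts of lower and higher genes moved when a library was left out, as did those over all genes. The median was -0.76 without WT replicate 1, -0.65 without WT replicate 2 and -0.45 without JMJD1B-/- replicate 2. The list includes Selp, which the study also showed from these libraries, so its direction is not independent evidence. A gene is listed only where some library reaches 1 RPKM. Among the lower targets Il6 and Cxcl5 did so only in WT, and among the higher ones Bcl2a1a and Bcl2a1b only in JMJD1B-/-. The place of these genes in the counts thus rested on the genotype where they were high.

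The lowest log2 fold changes in the list were those of Ccl3 and Il6. Ccl3, a chemokine of myeloid cells and basophils, had 41.3 and 47.6 RPKM in WT and 5.99 and 1.64 RPKM in JMJD1B-/- (log2 fold change -3.77 ± 0.52, SE). Il6, the cytokine, had 5.79 and 9.68 RPKM against 0.729 and 0.784 RPKM (-3.15 ± 0.43, SE). Csf1, the macrophage growth factor, had 7.96 and 7.23 RPKM against 1.66 and 0.777 RPKM (-2.63 ± 0.44, SE). The chemokine genes Ccl4 and Cxcl5 and the adhesion genes Vcam1 and Selp had log2 fold changes of -2.66, -1.81, -2.23 and -1.28, and the early response gene Ier3 had -1.86. The transcription factor genes Irf1 and Irf8 had -1.04 and -1.50, and the kinase gene Pim1 had -0.49. Of these targets, Ccl3, Il6, Csf1 and Ier3 passed in all 4 fits that left out 1 library, and each of the others failed in at least 1. Irf8 had 45.9 and 55.0 RPKM in WT and 33.3 and 9.34 RPKM in JMJD1B-/-, and its log2 fold change was -0.59 without JMJD1B-/- replicate 2 and -2.42 without replicate 1. Vcam1 had -1.27 without WT replicate 1 and -1.40 without JMJD1B-/- replicate 2, and Ccl4 had -1.76 without WT replicate 2 and -1.57 without JMJD1B-/- replicate 2. The chemokine gene Ccl5 overlapped between the genotypes, with a log2 fold change of 0.37 that turned to -0.60 without WT replicate 1 and -1.36 without JMJD1B-/- replicate 1, and that passed at 2.11 without JMJD1B-/- replicate 2. In the basophil and mast cell markers, 6 of 6 genes were lower at an unadjusted p under 0.05, against 6.33% of all genes tested. Their median log2 fold change was -2.94. The 8 tested granulocyte markers had a median of -1.59, with 5 lower, and the 8 monocyte and macrophage markers a median of -0.60, with 2 lower. The latter median rested on 1 library, since leaving out JMJD1B-/- replicate 2 brought it to 0.01 and leaving out replicate 1 to -1.22. The part of these cells in the levels of Ccl3, Il6 and Csf1 was not tested.

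The 4 higher targets were the survival genes Bcl2a1a and Bcl2a1b, Sod2, which encodes a mitochondrial superoxide dismutase, and the adhesion gene Cd44. Bcl2a1a had 0.716 and 0.459 RPKM in WT and 6.36 and 1.19 RPKM in JMJD1B-/-, and Bcl2a1b had 0.821 and 0.903 RPKM against 6.26 and 1.55 RPKM. Neither reached 1 RPKM in WT, so both were listed only through the JMJD1B-/- libraries. These paralogs are nearly identical and may share reads, so they are uncertain as separate genes. Both were highest in JMJD1B-/- replicate 1, the library with the highest sum of T and NK markers, and the part of those cells was not tested. Their log2 fold changes of 2.10 and 1.75 became 0.94 and 0.78 without that library, and did not pass, and 3.26 and 2.73 without JMJD1B-/- replicate 2. Sod2 and Cd44 had log2 fold changes of 0.56 and 0.55, with 0.31 for Sod2 without WT replicate 1, where neither passed. Neither Bcl2l1, which encodes BCL-xL, nor Myc passed over the 4 libraries, with log2 fold changes of -0.27 and -0.43. These were -0.06 and -0.02 with JMJD1B-/- replicate 1 left out and -0.48 and -0.83 with replicate 2 left out, where Myc passed.

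**Figure D5:**
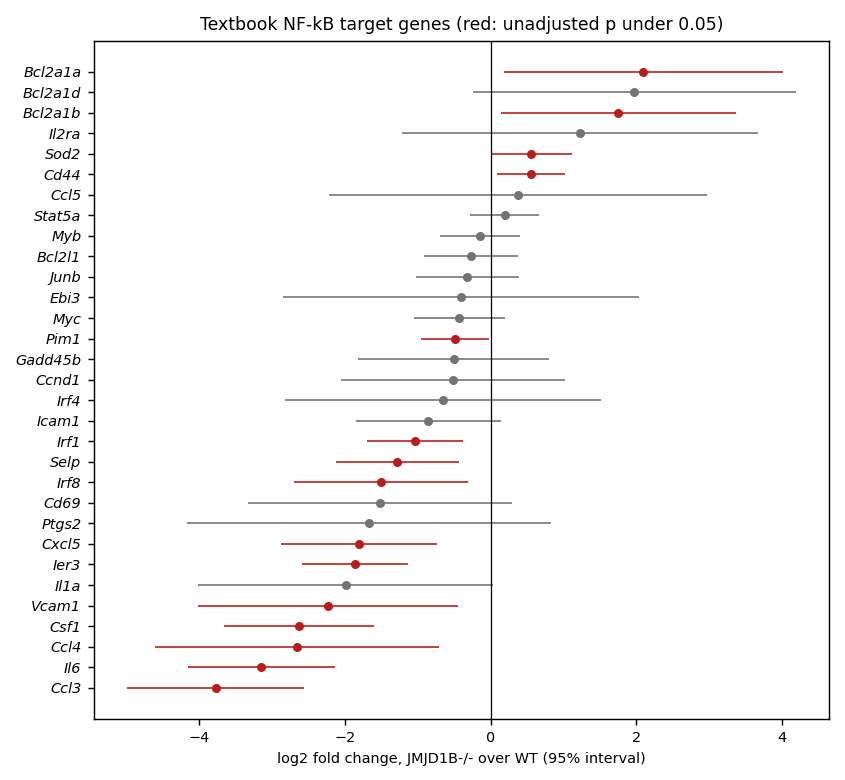
Log2 fold change of JMJD1B-/- over WT for the 31 textbook NF-kB targets tested, in order of size, each with its 95% interval from limma, and unadjusted p under 0.05 in red. The values run from -3.77 for Ccl3 to 2.10 for Bcl2a1a, and 11 red points lie under 0 and 4 above it.

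Within replicates, 6 of the 52 pathway genes differed by more than 2-fold between the WT libraries and 10 did so between the JMJD1B-/- libraries, not counting Tnfsf4, which was listed at 0 in one of them and at 1.06 RPKM in the other. In WT these were Tnfaip3, Nfkbia, Tnfsf4, Tnfrsf4, Tnf and Tnfaip8l1. The median gap between replicates was 0.24 in WT and 0.36 in JMJD1B-/- on the log2 scale, near the 0.22 and 0.36 over all genes.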

How the data were processed

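Of 35 samples in the series, the 2 WT and 2 JMJD1B-/- libraries of HSPC polyadenylated RNA were used here, and no ChIP-seq sample was. The authors deposited these libraries as columns of an RPKM table to which 1 had been added throughout. That 1 was subtracted again. Novoalign, TopHat2 and the build mm9 stand in the submitters' processing notes without a role, and the counting program and annotation are not given in the sources used here. The table gives 12024 entries for 11982 names, and the 84 entries that share a name were averaged. A gene is listed only where some library reaches 1 RPKM.

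The genotypes were compared for genes with a mean of at least 0.5 RPKM by limma (version 3.58.1, R version 4.3.3), with lmFit and then eBayes with trend, two-sided and with no replicate term. Values were log2(RPKM + 0.1), a scale that makes the fold changes of low genes too small. P-values were adjusted by Benjamini-Hochberg over 11863 genes and measure the spread between these libraries. The fit was tested on simulated data. Relative depth came from low genes whose values fall on whole-number ratios to WT replicate 1. These were 132, 199 and 123 genes for WT replicate 2 and JMJD1B-/- replicates 1 and 2. The scale was then settled on 133 low genes by the share of odd numbers, which lowered the depth of JMJD1B-/- replicate 1. The read numbers of low genes rest on the same ratios and are the smallest whole numbers that fit. Whole reads were not recovered for most genes, so no count test was run. Python (3.11.15) was used with pandas (2.3.3), numpy (2.4.6) and matplotlib (3.10.9). All 52 names were found in the RefSeq annotation of GRCm38.p6. Of the 52 genes, 1 was given no role. It stands in the counts but is not reported here singly. Promoter coordinates are of that assembly and were not mixed with the build of the table.

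The genes, lists and tests were chosen with earlier results of these data known. Values in every library were given for pathway genes with an unadjusted p under 0.05, those with a mean of at least 1 RPKM, no overlap and a log2 fold change of at least 1 in size, the most abundant gene of each role, and the subunits, IkB kinases and Nfkbia. Of other lists, genes with an unadjusted p under 0.05 were named. Tnfrsf1b, Tnfrsf25, Tnf, Tnfsf4, Tnfsf10, Birc3, Ripk2 and Tnfaip3, and genes of other lists that did not pass, were described after their values were seen. Each result was also computed with a pseudocount of 1 or 0.01, with another filter (none, or a mean of at least 1 RPKM), with median-ratio or quantile scaling, with no trend in limma, with a Student test of each gene, with a replicate block, and without each library in turn. In the last case, the lone library of a genotype is assumed to vary like those of the other.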

Additional observations from a re-analysis of the deposited data

How the results depend on the processing

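All 8 pathway genes with an unadjusted p under 0.05 kept their direction under the 13 alternatives. Tnfaip8 and Tnfrsf1a kept their side of the threshold in 12 of them, Rel and Nfkbiz in 10, Tnfaip2 in 9, Nfkbid and Nfkbie in 8 and Ikbkb in 7. Among the pathway genes the number of higher ones was 3 instead of 1 after quantile normalization. With 1 library left out, 1 to 12 pathway genes were lower and 0 to 3 higher at an unadjusted p under 0.05, and 0 to 4 were lower after adjustment. Over all genes at an unadjusted p, these ranges were 177 to 1819 lower and 123 to 1258 higher, around 751 and 452. After adjustment, where limma called 4 genes lower and 1 higher, a pseudocount of 1 gave 15 and 3, a pseudocount of 0.01 gave 2 lower, a mean of at least 1 RPKM gave 2 lower, median-ratio scaling and quantile normalization gave 0 lower, and limma without a trend and the gene-by-gene test gave 0 and 0. With 1 library left out, the adjusted counts were 0 to 523 lower and 0 to 147 higher.

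For the pathway genes under other names, where 10 were lower and 0 higher, limma without a trend gave 6 lower, and 2 were higher with median-ratio scaling, 1 after quantile normalization and 1 in the gene-by-gene test. With 1 library left out, 1 to 17 were lower and 0 to 3 higher. For the NF-kB targets, where 11 were lower and 4 higher, the gene-by-gene test gave 4 lower and 0 higher, limma without a trend gave 0 higher and median-ratio scaling gave 2 higher, and leaving out a library gave 5 to 17 lower and 0 to 6 higher. The cause of these differences was not tested, except that a fit without a library holds fewer samples.

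Replicate numbers of the labels did not pair the libraries: across genes, the differences between replicates 1 and 2 of the genotypes correlated at -0.05. With the number as a replicate block, 8 pathway genes passed without adjustment, 6 of them the same as without it, with Nfkbia and Traf3ip3 in place of Nfkbid and Nfkbie. The replicate block gave 1 higher gene among the pathway genes under other names, and 173 lower and 83 higher genes over all genes after adjustment.

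The shallowest library, JMJD1B-/- replicate 1, had 156 entries listed at 0, against 43 to 53 in the others, so differences of genes near 1 RPKM are the least certain.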
